A study of Mus musculus with 18 samples.

Results

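Caveolae are flask-shaped pits of the plasma membrane, and the 10 genes described here build them or bend the muscle membrane in related ways. They were chosen by name: the caveolins Cav1, Cav2 and Cav3, the cavins Cavin1, Cavin2, Cavin3 and Cavin4, the membrane-bending partners Ehd2 and Pacsin3, and Bin1. Each of the 10 was read by 1 probe set with a single gene symbol, out of 22180 genes measured, and each lay above the background guide defined below. The values come from 18 one-colour arrays of C2C12, a mouse myoblast line that fuses into myotubes when serum is lowered. Growth was in 20% fetal bovine serum and differentiation in 2% horse serum; at 36 h of differentiation the cells received lentivirus, and 48 h after that they were harvested. The virus carried a short hairpin RNA (shRNA), which was a scramble in 6 arrays (control), aimed at the nuclear pore protein Nup210 in 6, and aimed at the muscle transcription factor Mef2c in 6. All 3 groups were therefore infected, differentiating cultures of 1 cell line. No label says that arrays sharing a group came from different cultures, so each p-value reflects the scatter among the arrays at hand, possibly technical in part.

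Caveolins are hairpin membrane proteins that cluster into the coat of the pit, and cavins are cytoplasmic coat proteins that gather on them and stabilise the curvature. Muscle uses its own caveolin, Cav3, and its own cavin, Cavin4, beside the widely expressed members. In developing muscle, pits rich in Cav3 and the amphiphysin Bin1 are linked to the formation of transverse (T) tubules, the inward tubes that carry the action potential to the calcium store. EHD2 is an ATPase that sits at the neck of the pit and holds it at the surface, and PACSIN3 is an F-BAR protein that bends membrane at caveolae of muscle.

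Values are on the log2 scale, on which a step of 1 is a doubling. Array medians ran from 5.48 to 5.57, and the 6 arrays per group limit the precision. Olfactory and vomeronasal receptor genes, which are little expressed outside sensory tissue, served as the guide to background, with a 95th percentile of 5.47. The hairpin against Mef2c left 17.9% of the control Mef2c level (exact permutation p = 0.00216, the smallest that 924 splits allow; adjusted p = 0.00866 over 4 tests). Nup210 stood at 93.1% of control in the arrays labelled Nup210 shRNA (exact permutation p = 0.0801, adjusted p = 0.107). Its mean was 5.75 in controls and 5.65 in these arrays, near the background guide, which leaves little room to see a fall. Its mRNA does not clearly separate them from controls, and they are called Nup210-labelled arrays here. Against the Mef2c shRNA arrays Nup210 differed by -0.23 (limma adjusted p = 0.0178). That difference did not pass without Nup210-labelled arrays 2, 4 and 5 (limma adjusted p = 0.174). All 5 myotube markers (Ckm, Myh3, Acta1, Actn2, Tnnt3) and all 5 myoblast markers (Myf5, Pax7, Myod1, Cdh15, Des) were above the background guide in every group. Of 5 endothelial markers 1 (Kdr), of 5 adipocyte markers 1 (Plin1) and of 5 macrophage markers 2 (Cd68 and Cd14) were above it, while Pecam1, Cdh5, Vwf, Adipoq, Fabp4, Ptprc and Csf1r were not. In these bulk samples, fewer cells of a type and less RNA per cell cannot be told apart.

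Among the 10 genes, 3 fell and 1 rose in the Nup210-labelled arrays, and 2 fell and none rose in the Mef2c shRNA arrays. Cav2 passed the test in both comparisons, Cavin1, Ehd2 and Cavin2 for the Nup210 label, and Cav1 for Mef2c shRNA. The test was a limma fit of all 18 arrays with Benjamini-Hochberg adjustment over the 22180 genes, and an adjusted p under 0.05 counted as a call. Of all genes tested, 8.16% were called in the Nup210 comparison (3.05% higher and 5.11% lower) and 10.8% in the Mef2c comparison (4.34% higher and 6.42% lower). The 4 of 10 called for the Nup210 label stand beside the first of those shares. The 2 of 10 for Mef2c shRNA are nearer to the second and are not by themselves a result about the group. The median log2 difference of the 10 genes was -0.14 for the Nup210 label, against 0.02 over all genes, and -0.03 for Mef2c shRNA, against 0.02. Both comparisons share the 6 control arrays. After median centring of the arrays, the called genes of the Mef2c comparison were 592 higher and 1601 lower, in place of 963 and 1423, and those of the Nup210 comparison were 445 higher and 1088 lower, in place of 676 and 1133.

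**Figure D1:**
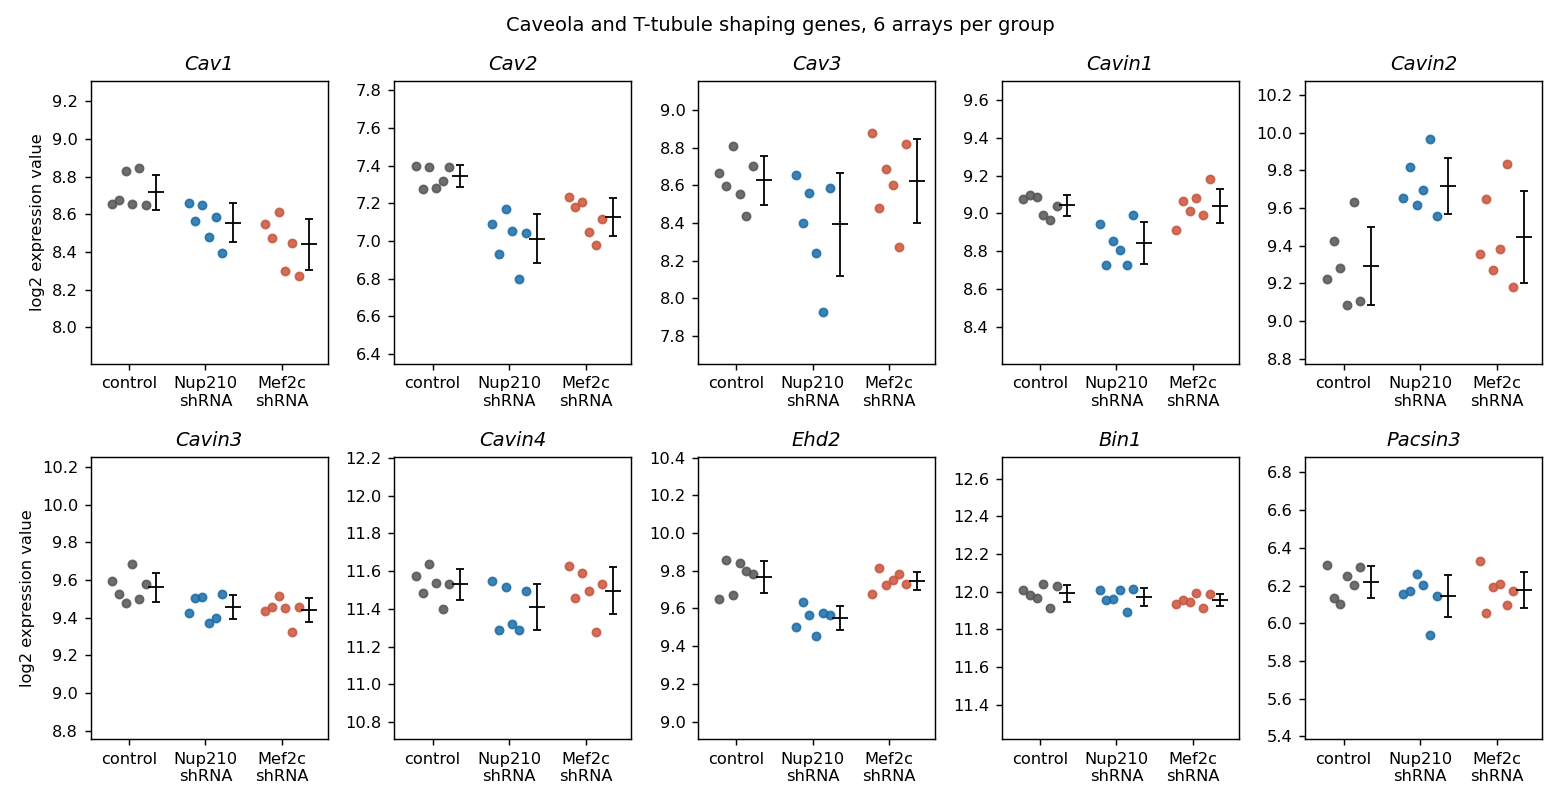
Log2 expression value (vertical axes, each spanning the same 1.5 log2 units) of the 10 genes in 6 control, 6 Nup210 shRNA and 6 Mef2c shRNA arrays. Each point is an array and the black bar is the group mean ± SD; the Cav2 and Ehd2 points of the Nup210-labelled arrays lie below every control point, and the Bin1 points of the 3 groups lie at one height.

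The widely expressed caveolins Cav1 and Cav2 lie side by side on chromosome 6, and the muscle caveolin Cav3 lies farther along the same chromosome. Their promoters are shown because Cav1 and Cav2 were both called lower in the Mef2c shRNA arrays and Cav3 was not. An unequal change of Cav3 and Cav1 was not shown there (exact permutation adjusted p = 0.134). Each line gives the 250 bases before the annotated start (RefSeq, mouse build GRCm38.p6), read 5′ to 3′ on the gene's strand, with motif matches in capitals: the E-box CANNTG, bound by MyoD family factors, the GC box GGGCGG and the TATA box TATAAA, on either strand.
Cav1 (first start in the table, chr6:17306085-17306334, plus strand): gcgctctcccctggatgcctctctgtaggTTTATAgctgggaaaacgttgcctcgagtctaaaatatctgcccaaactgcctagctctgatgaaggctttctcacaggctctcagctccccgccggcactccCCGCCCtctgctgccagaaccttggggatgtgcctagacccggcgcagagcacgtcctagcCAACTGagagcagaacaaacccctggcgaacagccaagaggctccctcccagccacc
Cav2 (chr6:17280935-17281184, plus strand): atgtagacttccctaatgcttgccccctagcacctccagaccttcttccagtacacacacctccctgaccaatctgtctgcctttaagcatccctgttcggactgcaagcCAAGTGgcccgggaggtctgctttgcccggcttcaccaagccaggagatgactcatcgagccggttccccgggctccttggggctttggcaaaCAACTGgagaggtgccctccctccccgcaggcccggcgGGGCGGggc
Cav3 (chr6:112459255-112459504, plus strand): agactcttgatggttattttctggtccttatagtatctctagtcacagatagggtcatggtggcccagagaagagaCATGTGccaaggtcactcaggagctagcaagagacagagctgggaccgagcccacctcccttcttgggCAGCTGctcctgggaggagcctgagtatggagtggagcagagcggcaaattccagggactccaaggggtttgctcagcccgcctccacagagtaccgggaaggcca
Cav1 holds 1 E-box, Cav2 holds 2 and Cav3 holds 2. A GC box is present in these windows of Cav1 and Cav2 and not in that of Cav3. The 250 bases before the second annotated start of Cav1 hold no GC box. The capitals that open the Cav1 line are a TATA box match on the opposite strand, 221 to 216 bases before the start.

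Cav2, which traffics to the surface with Cav1, was lower in both shRNA groups. Its log2 values ran from 7.28 to 7.40 with a median of 7.36 in controls, from 6.80 to 7.17 with a median of 7.05 in the Nup210-labelled arrays, and from 6.98 to 7.23 with a median of 7.15 in the Mef2c shRNA arrays. Neither shRNA group overlapped the controls. The Nup210-labelled mean was 0.795 of control (log2 difference -0.33 ± 0.0595 SE, limma adjusted p = 0.00151). This call was kept in all 30 alternatives tried, with adjusted p from 0.00041 to 0.0443. The Mef2c shRNA mean was 0.861 of control (-0.22 ± 0.0595, adjusted p = 0.0238). That call was lost without control array 1 (adjusted p = 0.0536) or 6 (0.0532), without Mef2c shRNA array 4 (0.0553) or 5 (0.0602), and without control arrays 4 and 6 together (0.0754). The 2 shRNA groups overlapped each other, and their difference of -0.11 did not pass (adjusted p = 0.256).

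Cav1, the structural caveolin of most non-muscle cells and of myoblasts, fell in the Mef2c shRNA arrays. Its values ran from 8.65 to 8.84 (median 8.67) in controls and from 8.27 to 8.61 (median 8.46) in the Mef2c shRNA arrays, with no overlap. The mean was 0.826 of control (-0.28 ± 0.065 SE, adjusted p = 0.00862), a call kept in all 30 alternatives with adjusted p from 0.00097 to 0.0455. In the Nup210-labelled arrays Cav1 ran from 8.39 to 8.66 (median 8.58), and 4 of the 6 lay below every control array. The difference of -0.16 did not pass (adjusted p = 0.153; 95% interval -0.30 to -0.03 on the log2 scale before adjustment for the number of genes). That difference passed with a block for the replicate number in the titles (limma adjusted p = 0.0325). Between the shRNA groups Cav1 differed by 0.11, within a 95% interval of -0.02 to 0.25 (adjusted p = 0.318).

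Cav3, the caveolin of differentiated muscle fibres, was not called in any of the 3 comparisons of this fit, and its spread within groups was wide. In controls it ran from 8.44 to 8.81 (median 8.63), in the Nup210-labelled arrays from 7.93 to 8.65 (median 8.48) and in the Mef2c shRNA arrays from 8.27 to 8.88 (median 8.64). Its SD was 0.13 in controls, 0.27 in the Nup210-labelled arrays and 0.22 in the Mef2c shRNA arrays. The difference of the Nup210-labelled arrays was -0.23 (95% interval -0.48 to 0.02, adjusted p = 0.287). This difference passed with the block for replicate number (limma adjusted p = 0.0284). For Mef2c shRNA the difference was -0.0026, with a 95% interval of -0.25 to 0.24 (adjusted p = 0.993). On renewed quantile normalization it was above 0. A Cav3 difference of up to 1.18-fold higher or 0.841 of control lies inside that interval, while the Mef2c transcript in the same arrays was at 17.9%. The arrays read no protein, and dependence of Cav3 on Mef2c was not tested.

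**Figure D2:**
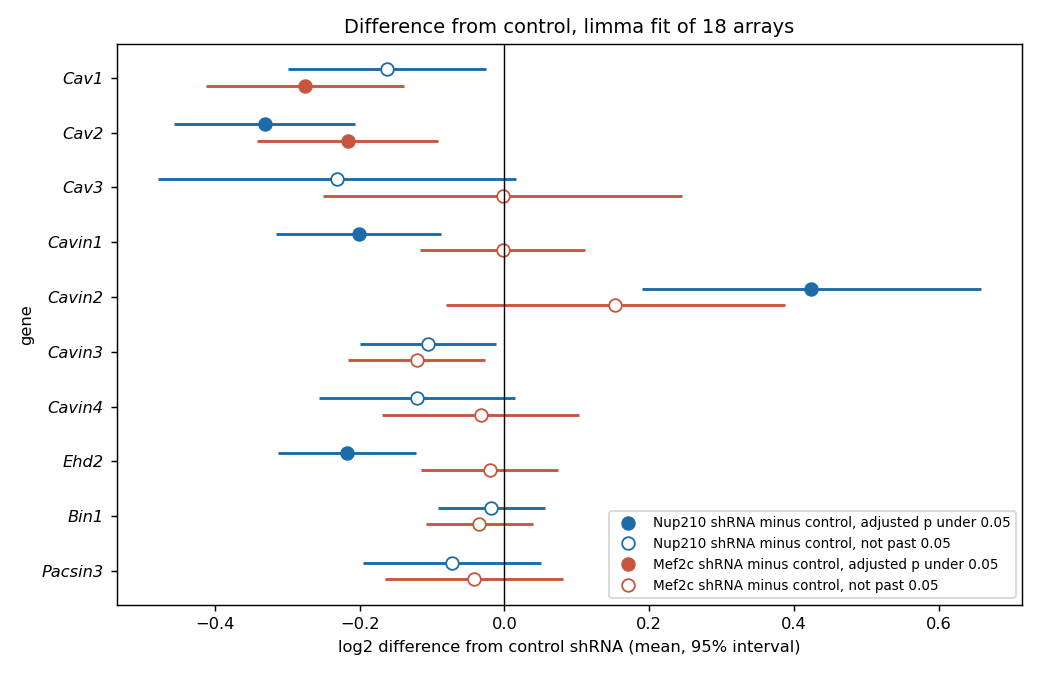
Log2 difference from control shRNA (horizontal axis) for each of the 10 genes in the Nup210-labelled and Mef2c shRNA arrays, with lines for the 95% interval of the limma fit. Filled points passed an adjusted p of 0.05: Cav2, Cavin1, Ehd2 and, to the right of 0, Cavin2 for the Nup210 label, and Cav1 and Cav2 for Mef2c shRNA.

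The cavins did not move as a block. In the Nup210-labelled arrays Cavin1 fell and Cavin2 rose, and the main fit called no cavin in the Mef2c shRNA arrays. The promoters of 3 cavins are shown: for the Nup210 label Cavin1 fell, Cavin2 rose, and the muscle form Cavin4 was not called. An unequal change of Cavin4 and Cavin1 was not shown there (Cavin4 minus Cavin1 shifted by 0.08, exact permutation adjusted p = 0.134). The motifs are those listed for the caveolins and the MCAT element CATTCC, bound by TEAD factors.
Cavin1 (first start in the table, chr11:100970618-100970867, minus strand): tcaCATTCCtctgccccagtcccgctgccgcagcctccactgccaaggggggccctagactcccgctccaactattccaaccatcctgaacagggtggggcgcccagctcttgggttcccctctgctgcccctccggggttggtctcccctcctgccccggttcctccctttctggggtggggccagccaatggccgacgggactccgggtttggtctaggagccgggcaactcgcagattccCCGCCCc
Cavin2 (chr1:51288876-51289125, plus strand): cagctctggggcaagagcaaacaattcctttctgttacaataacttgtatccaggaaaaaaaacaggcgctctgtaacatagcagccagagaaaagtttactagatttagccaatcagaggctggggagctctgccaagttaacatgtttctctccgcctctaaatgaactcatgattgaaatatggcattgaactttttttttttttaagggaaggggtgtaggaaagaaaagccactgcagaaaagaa
Cavin4 (chr4:48663264-48663513, plus strand): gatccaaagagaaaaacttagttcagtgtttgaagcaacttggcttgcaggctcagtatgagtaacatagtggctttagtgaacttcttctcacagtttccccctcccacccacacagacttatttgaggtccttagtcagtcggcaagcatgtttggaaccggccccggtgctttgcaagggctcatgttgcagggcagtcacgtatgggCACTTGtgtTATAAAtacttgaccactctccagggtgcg
Cavin1 holds an MCAT element and a GC box and no E-box. Cavin2 holds none of the motifs searched. Cavin4 holds an E-box 39 to 34 bases before the start and a TATA box 30 to 25 bases before it. The GC content of these 250 bases was 67.6% for Cavin1, 40.4% for Cavin2 and 48.8% for Cavin4, beside a median of 52% over 27025 genes.

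Cavin1, the core cavin without which pits do not form, ran from 8.96 to 9.10 (median 9.06) in controls and from 8.73 to 8.99 (median 8.83) in the Nup210-labelled arrays. Of those 6 arrays, 5 lay below every control. The mean was 0.870 of control (-0.20 ± 0.054 SE, adjusted p = 0.0272). The call was lost without control array 1 (adjusted p = 0.0578), 2 (0.0599) or 3 (0.0588), or Nup210-labelled array 2 (0.0664), 4 (0.0558) or 5 (0.0686). It was also lost without Nup210-labelled arrays 2, 4 and 5 together, where the difference was -0.11 (0.418), without control arrays 4 and 6 together (0.0670), and without array 5 of every group (0.0676). In the Mef2c shRNA arrays Cavin1 ran from 8.91 to 9.18 (median 9.04), on both sides of the controls, with a difference of -0.0026 (95% interval -0.12 to 0.11, adjusted p = 0.985). This difference too was above 0 on renewed quantile normalization.

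Cavin2, a cavin that shapes the size and curvature of caveolae, was the largest change among the 10 genes. It ran from 9.08 to 9.63 (median 9.25) in controls and from 9.56 to 9.96 (median 9.67) in the Nup210-labelled arrays, 4 of which lay above every control. The mean was 1.34-fold that of controls (0.42 ± 0.11 SE, adjusted p = 0.0233). With the block for replicate number the call was kept (limma adjusted p = 0.000106). The call was lost without control array 1 (adjusted p = 0.0501), 4 (0.0589) or 6 (0.0582), or Nup210-labelled array 2 (0.0531) or 5 (0.0613). Without Nup210-labelled arrays 2, 4 and 5 the difference was 0.32 (0.311), and without control arrays 4 and 6 it was 0.33 (0.156). In the Mef2c shRNA arrays Cavin2 ran from 9.18 to 9.83 (median 9.37), and its difference of 0.15 did not pass (95% interval -0.08 to 0.39, adjusted p = 0.464). This difference passed with the block for replicate number (limma adjusted p = 0.0492).

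Cavin3, a cavin that binds Cavin1 and protein kinase C delta, did not pass in either comparison. It ran from 9.48 to 9.68 (median 9.55) in controls, from 9.37 to 9.52 (median 9.46) in the Nup210-labelled arrays and from 9.32 to 9.51 (median 9.45) in the Mef2c shRNA arrays. Of the Mef2c shRNA arrays 5 lay below every control. The difference there was -0.12 (adjusted p = 0.0995), and it passed with dim genes left out (adjusted p = 0.0459) and with a trended robust prior (adjusted p = 0.0440). For the Nup210 label the difference was -0.11 (adjusted p = 0.185).

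Cavin4, the cavin of striated muscle, was not called in any of the 3 comparisons. It ran from 11.40 to 11.64 (median 11.54) in controls, from 11.29 to 11.55 (median 11.41) in the Nup210-labelled arrays and from 11.27 to 11.63 (median 11.51) in the Mef2c shRNA arrays. The differences were -0.12 (95% interval -0.26 to 0.01, adjusted p = 0.315) and -0.03 (-0.17 to 0.10, adjusted p = 0.83). The Cavin4 mean in the Mef2c shRNA arrays was 97.7% of control, beside a Mef2c transcript at 17.9%. The arrays read no protein, and dependence of Cavin4 on Mef2c was not tested.

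Ehd2 fell in the Nup210-labelled arrays and not in the Mef2c shRNA arrays, and this difference was itself tested. Its values ran from 9.65 to 9.86 (median 9.79) in controls, from 9.45 to 9.63 (median 9.57) in the Nup210-labelled arrays and from 9.67 to 9.82 (median 9.74) in the Mef2c shRNA arrays. The Nup210-labelled arrays lay below every array of both other groups. The mean was 0.860 of control (-0.22 ± 0.045 SE, adjusted p = 0.00469) and 0.873 of the Mef2c shRNA mean (-0.20 ± 0.045, adjusted p = 0.00533). Both calls were kept in all 30 alternatives, with adjusted p up to 0.0419 and 0.0282. Against control, Ehd2 in the Mef2c shRNA arrays differed by -0.02 (95% interval -0.12 to 0.07, adjusted p = 0.850). Its 250 bases before the start hold 1 E-box and 1 GC box.

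Pacsin3 ran from 6.10 to 6.31 (median 6.23) in controls, from 5.94 to 6.26 (median 6.16) in the Nup210-labelled arrays and from 6.05 to 6.33 (median 6.18) in the Mef2c shRNA arrays. The 3 groups overlapped throughout. The differences of -0.07 and -0.04 did not pass (adjusted p = 0.553 and 0.737).

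Bin1, the amphiphysin whose muscle form tubulates membrane and which is the classic shaper of the T tubule, had the narrowest spread of the 10 genes, with an SD of 0.05 or less in each group. It ran from 11.92 to 12.04 (median 11.99) in controls, from 11.89 to 12.01 (median 11.98) in the Nup210-labelled arrays and from 11.91 to 11.99 (median 11.95) in the Mef2c shRNA arrays. The groups overlapped. The difference for the Nup210 label was -0.02 (95% interval -0.09 to 0.06, adjusted p = 0.846), and for Mef2c shRNA it was -0.03 (-0.11 to 0.04, adjusted p = 0.623). A change of Bin1 beyond 0.927 of control or 1.04-fold thus lies outside both intervals.

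Set directly against each other, the shRNA groups differed in Ehd2 and Cavin1, both lower in the Nup210-labelled arrays. Of all genes 14% were called in this comparison (7.1% higher and 6.93% lower in the Nup210-labelled arrays), and 2 of the 10 were. Cavin1 differed by -0.20 ± 0.054 SE (adjusted p = 0.0183), with 4 of 6 Nup210-labelled arrays below every Mef2c shRNA array. That call was lost with the 2 groups alone in the fit (adjusted p = 0.0557), without Nup210-labelled arrays 2, 4 and 5, where the difference was -0.11 (0.315), and without array 5 of every group (0.0554). Cavin2 was 0.27 higher in the Nup210-labelled arrays without passing (95% interval 0.04 to 0.51 before adjustment, adjusted p = 0.131). It passed without Mef2c shRNA array 5 (adjusted p = 0.0320), without array 5 of every group (0.0333) and with the block for replicate number (0.00129). Cav3 was 0.23 lower there (95% interval -0.48 to 0.02, adjusted p = 0.25), and it passed with that block (limma adjusted p = 0.0205).

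Whether the muscle form of a family changed unlike its widely expressed relative was tested within arrays. Within each array the log2 value of Cav1 was subtracted from that of Cav3, and the shift of this difference between groups was tested, since probe sets differ in brightness and the difference itself has no meaning as a level. The shift was 0.27 for Mef2c shRNA (two-sided exact permutation p = 0.0671, adjusted p = 0.134 over 6 tests) and -0.07 for the Nup210 label (exact permutation p = 0.628, adjusted p = 0.688). Without Mef2c shRNA array 5 the first shift was 0.34 and passed (exact permutation adjusted p = 0.0390). Cavin4 minus Cavin1 shifted by 0.08 for the Nup210 label (exact permutation p = 0.0390, adjusted p = 0.134) and by -0.03 for Mef2c shRNA (exact permutation p = 0.688, adjusted p = 0.688). Between the hairpins, Cav3 minus Cav1 shifted by -0.34, the largest of the 6 (exact permutation p = 0.0541, adjusted p = 0.134), and Cavin4 minus Cavin1 by 0.11 (exact permutation p = 0.152, adjusted p = 0.227). With all arrays, none of the 6 passed after adjustment.

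Much of the spread within groups followed the replicate number that the titles give, most of all for the muscle genes and Cavin2. In arrays numbered 5, Cav3 was the lowest of its group each time, at 8.44 in control, 7.93 in Nup210 shRNA and 8.27 in Mef2c shRNA. Cavin4 was lowest in the same 3 arrays, at 11.40, 11.29 and 11.27, and so was Bin1, at 11.92, 11.89 and 11.91. Cavin2 did the opposite and was highest in them, at 9.63, 9.96 and 9.83. Averaged over the 3 groups, arrays numbered 5 deviated from their group means by -0.34 for Cav3, -0.16 for Cavin4, -0.07 for Bin1 and 0.33 for Cavin2. The number accounted for 91.4% of the within-group sum of squares for Cavin2, 89.3% for Bin1, 86.5% for Cavin4, 84.4% for Cav3 and 76.8% for Cav1, beside a median of 37.0% and a 95th percentile of 75.5% over all genes. For Cav2 it was 68.7% and for Ehd2 64.5%, above 91.1% and 88.1% of genes. For Pacsin3 it was 48.9%, for Cavin1 41.0% and for Cavin3 34.6%. In the same arrays the myotube markers deviated by -0.06 on average and the myoblast markers by 0.08. Single myotube markers went both ways, with Ckm at -0.11 and Myh3 at 0.05. Of the myoblast markers, Myf5 was at 0.11 and Pax7 at 0.30. What the number stands for is not given in the sources used here, and the part of these markers in the pattern was not tested.

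**Figure D3:**
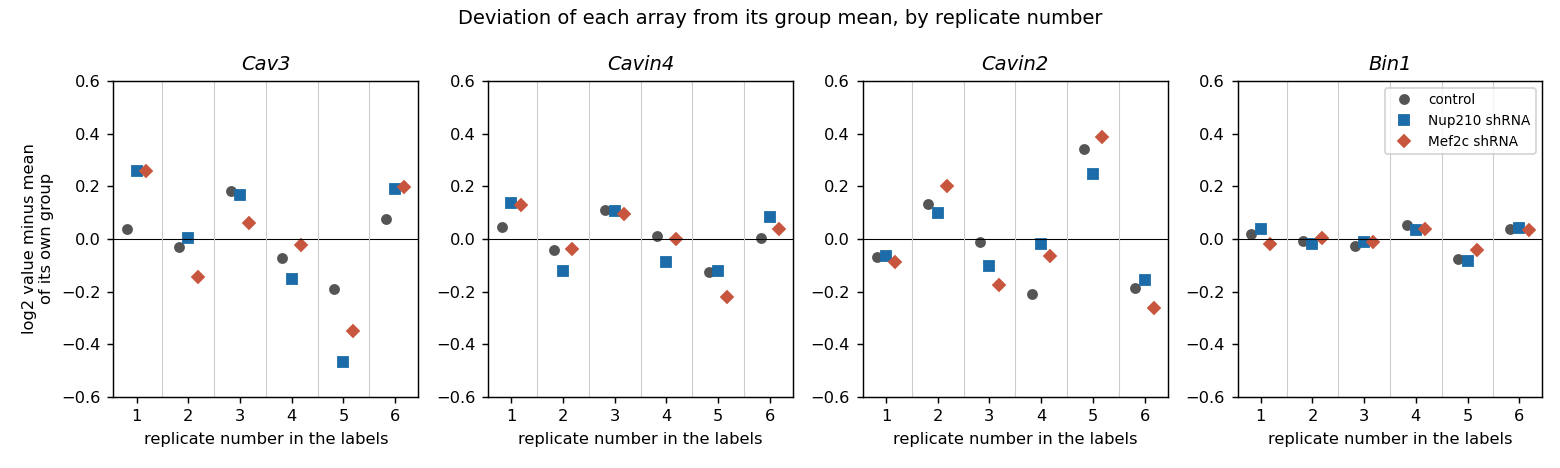
Log2 value minus the mean of its own group (vertical axis) against the replicate number in the labels (horizontal axis) for Cav3, Cavin4, Cavin2 and Bin1, 1 point per array and 3 groups. At number 5 the points of Cav3, Cavin4 and Bin1 lie below 0 in all 3 groups and those of Cavin2 lie above 0.

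Markers of the differentiation state also differed between groups. In the Nup210-labelled arrays 2 of 5 myoblast markers rose (Myf5 by 0.66, Myod1 by 0.26) and 2 of 5 myotube markers fell (Ckm by 0.39, Myh3 by 0.20). The mean level of the myoblast markers ran from 10.12 to 10.32 across these arrays and from 9.90 to 10.12 in controls, and that of the myotube markers from 11.06 to 11.20 against 11.23 to 11.33. In the Mef2c shRNA arrays 3 of 5 myotube markers fell (Acta1, Actn2 and Myh3), with the list at 10.95 to 11.10, while Myf5 rose and Cdh15 fell among the myoblast markers, with that list at 9.97 to 10.11. Of 5 smooth muscle markers Cnn1 and Tagln fell in both groups, and of 5 fibroblast markers Dcn rose in both and Col1a1 fell in the Mef2c shRNA arrays. The part of these markers in the changes of Cav1, Cav2, Cavin1, Cavin2 and Ehd2 was not tested.

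Other genes of caveolae were mostly not called. Of 12 listed partners (EHD and PACSIN relatives, flotillins and signalling proteins found at caveolae) 11 were measured, and 1 rose and 1 fell in each comparison, so 2 of 11 beside the 8.16% and 10.8% of all genes. Nos1, the neuronal nitric oxide synthase anchored at the muscle membrane, fell from 6.85 ± 0.23 (SD, n = 6) in controls to 6.28 ± 0.21 in the Nup210-labelled arrays (0.678 of control, adjusted p = 0.00834). Without Nup210-labelled arrays 2, 4 and 5 it was no longer called (adjusted p = 0.0930). The endothelial synthase Nos3 rose by 0.19 there with an adjusted p of 0.0495, a call lost in 23 of 30 alternatives. In the Mef2c shRNA arrays Pacsin1, the neuronal relative of Pacsin3, fell by 0.30 (adjusted p = 0.0362), and the receptor Ror1, which binds Cavin1 in cancer cells, rose by 0.31 (adjusted p = 0.0200). The Pacsin1 call was lost without control array 1, 3, 4 or 6 or Mef2c shRNA array 1, 2, 3 or 5 (adjusted p from 0.0535 to 0.0865), and that of Ror1 without control array 4 (0.0544) or 6 (0.0532). Ehd1, Ehd3, Ehd4, Pacsin2, Flot1 and Flot2 did not pass in either comparison, although a dimmer probe set of Ehd1 differed by -0.34 for the Nup210 label and -0.40 for Mef2c shRNA. Ehd4 differed by -0.13 for Mef2c shRNA (limma adjusted p = 0.0626) and passed in 5 of 30 alternatives.

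Among genes of the T tubule and of membrane repair, most of the calls in the Nup210-labelled arrays were falls. Of 16 such genes, all measured, 7 fell and 1 rose there, beside 5.11% and 3.05% of all genes, with a median of -0.17. Without Nup210-labelled arrays 2, 4 and 5, 4 fell and none rose. The largest falls were of the ferlin Myof, which acts in membrane fusion and repair, at 0.733 of control (-0.45 ± 0.040 SE, adjusted p = 1.55e-06), and of Jph1, the junctophilin that ties the T tubule to the calcium store, at 0.777 (-0.36 ± 0.053, adjusted p = 0.000238). The rise was of the Popeye protein Popdc3, at 1.14-fold (adjusted p = 0.00553). The other 5 falls, named after their values were seen, were of Dnm1, Popdc2, Speg, Jph2 and Dysf, by 0.35, 0.34, 0.27, 0.26 and 0.23 on the log2 scale; a dimmer probe set of Dysf was higher by 0.15. With the mean of both probe sets Dysf differed by -0.04 and was not called (adjusted p = 0.612), and its call was also lost without control arrays 4 and 6 (0.0895). The calls lost without Nup210-labelled arrays 2, 4 and 5 were those of Dysf (0.204), Jph2 (0.115), Speg (0.0551) and Popdc3 (0.128). Mtm1, Dnm2 and Amph, which work with or resemble Bin1, did not pass in either comparison. Amph lay below the background guide, at means of 4.63 (control), 4.73 (Nup210 label) and 4.79 (Mef2c shRNA), so a change of it could not be judged. In the Mef2c shRNA arrays 3 of the 16 fell, beside 6.42% of all genes, and none rose. The fall of Tcap, the titin cap of the Z-disc edge near the T tubule, was the largest (from 8.38 ± 0.23 to 7.67 ± 0.42, 0.611 of control, adjusted p = 0.0111), a call lost without control arrays 4 and 6 together (0.0711). Popdc2 fell to 0.745 of control (adjusted p = 0.000358) and Jph1 to 0.827 (adjusted p = 0.00193), the last named after its value was seen.

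**Figure D4:**
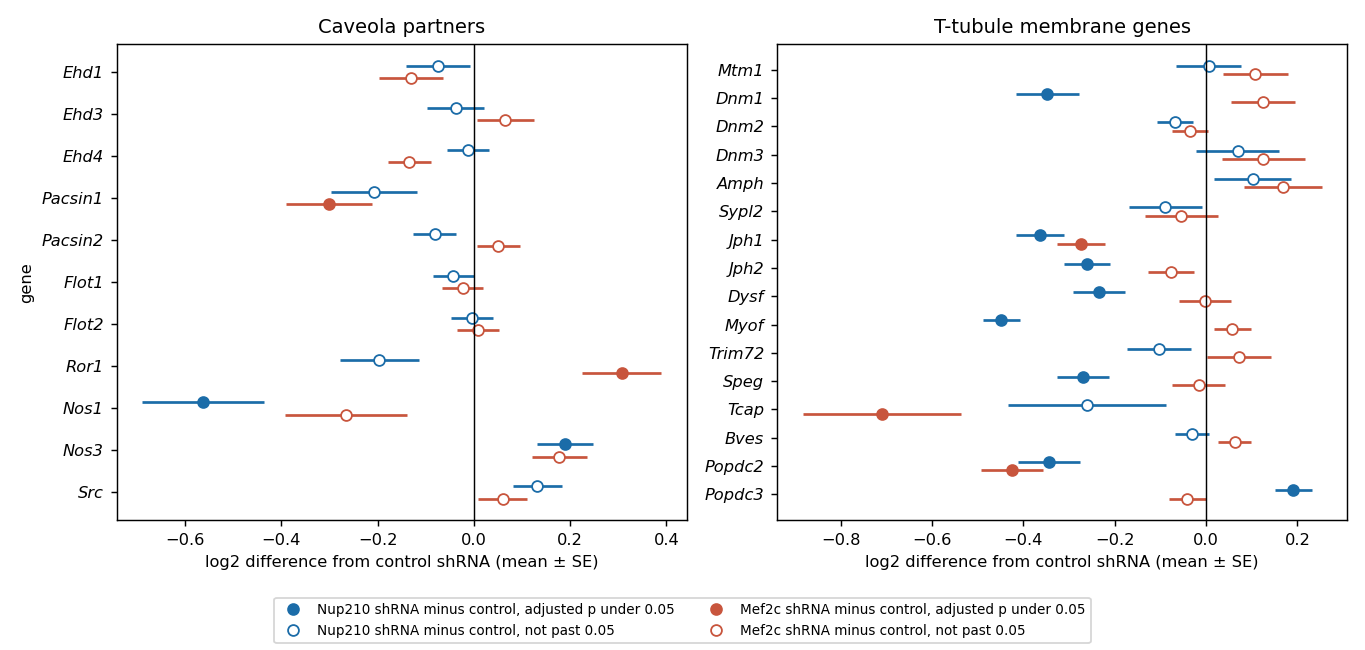
Log2 difference from control shRNA (horizontal axes, mean ± SE of the limma fit) for 11 caveola partners on the left and 16 T-tubule membrane genes on the right, in the Nup210-labelled and Mef2c shRNA arrays. Filled points passed an adjusted p of 0.05: 8 on the right for the Nup210 label, of which Popdc3 alone lies above 0, and 3 for Mef2c shRNA.

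The neighbours of Cav2 and Cav1 on chromosome 6 were looked up to see whether the locus moved together, and they were chosen after the values of the caveolins were known. The order of protein-coding genes is Tes, Cav2, Cav1, Met. Tes, a LIM protein of focal adhesions read here by its brightest probe set, rose by 0.29 in the Nup210-labelled arrays (adjusted p = 0.0165) while Cav2 fell, and it fell by 0.25 in the Mef2c shRNA arrays (adjusted p = 0.0334). The receptor gene Met differed by 0.05 and -0.07 (adjusted p = 0.826 and 0.732).

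The genes most like a member were found by the root mean square difference of values centred on the control mean, over 18 arrays and among genes above background. For Cavin2, the largest change for the Nup210 label, they were Sema3e (0.11), Prrx1 (0.13) and Snai2 (0.13), beside a median of 0.34 for all such genes. Sema3e is a secreted guidance semaphorin, and Prrx1 and Snai2 are transcription factors of mesenchymal cells. Against control these 3 were higher by 0.43, 0.34 and 0.33 in the Nup210-labelled arrays. For Cav1, the largest change for Mef2c shRNA, they were Clock (0.086), Aknad1 (0.089) and Nfil3 (0.089), beside a median of 0.25. Clock is a circadian transcription factor and Nfil3 a circadian repressor. The differences of Clock, Aknad1 and Nfil3 in the Mef2c shRNA arrays were -0.24, -0.22 and -0.26. All of these genes were picked for likeness over the same arrays, so a shared direction follows from the choice.

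Across the promoters, 8 of the 10 genes had an entry in the table (not Cavin3 and Bin1). By the first start of each, 6 of 8 held an E-box, as did 66% of 27025 genes over the same 250 bases. A GC box stood in 5 of 8 (32.9% of genes), an MCAT element in Cavin1 and Pacsin3 (12.6% of genes) and a TATA box in Cav1 and Cavin4 (13% of genes). The MEF2 site, searched by its consensus, was in 0 of 8 and in 3.01% of genes, and the CArG box in 0 of 8 and 1.4%. The windows are short and matches are letters alone.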

How the data were processed

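The authors deposited log2 values, 1 for each probe set, of biotin-labelled one-colour arrays, made with RMA and Partek per the submitters' processing notes; the sources used here name no version, setting or build. The RMA method corrects background, equalises the arrays' distributions and summarises probes, which compresses differences of dim genes. Samples were grouped by title. Of 41345 probe sets, 23521 had 1 gene symbol in the platform annotation, 1814 several and 16010 none; the brightest singly named probe set per gene by mean over 18 arrays was used. Symbols were checked by Entrez identifier against RefSeq of GRCm38.p6, and 0 changed.

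The fit used limma 3.58.1 under R 4.3.3, with all 18 arrays, a mean for each group and 15 residual degrees of freedom. The fit was tested on simulated data. Single comparisons of targeted genes and gene pairs used two-sided exact permutation tests. The named genes were the 10 genes, the targeted genes, per partner list and comparison with control the 2 largest called changes in each direction, and the 3 genes most like the most changed member. The genes, lists and tests were chosen with earlier results of these data known. No batch or scan date is given in the sources used here. Alternatives tried were a block for replicate number, the compared groups alone, averaging probe sets, array weights, median centring, a trended robust prior, renewed quantile normalization, omission of dim genes, a threshold of 0.01, and leaving out single arrays or sets of arrays; leaving out array 5 of every group was added after seeing the data.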

Additional observations from a re-analysis of the deposited data

Results flagged for a closer look

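Pacsin3 in Nup210-labelled array 5 stood at 5.94, apart from the other 5 arrays of that group at 6.14 to 6.26. It was the 1 outlying value among 30 groups of 6 examined (10 genes in 3 groups), and chance alone gives about 1 in 20 such groups. In that array Cav2, Cav3, Cavin1, Cavin4 and Bin1 were also the lowest of their group.

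The shRNA groups differed in Cavin1 and Ehd2: in the direct comparison the Nup210-labelled arrays were lower by 0.20 for each (log2 differences -0.20 and -0.20, limma adjusted p = 0.0183 and 0.00533). The Cavin1 call was lost with the 2 groups alone in the fit (limma adjusted p = 0.0557). It was also lost without Nup210-labelled arrays 2, 4 and 5 (0.315) and without array 5 of every group (0.0554). For Ehd2 all 6 Nup210-labelled arrays lay below every Mef2c shRNA array, and for Cavin1 4 of 6 did.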

How the results depend on the processing

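Of the calls named for the 10 genes, those of Cav1 for Mef2c shRNA, Cav2 for the Nup210 label and Ehd2 for the Nup210 label and between the hairpins were kept under each of the 30 alternatives; no called gene changed sign. At a threshold of 0.01 the genes called were 904 for the Nup210 label, 1302 for Mef2c shRNA and 1899 between the hairpins, with 2, 1 and 1 of the 10 genes. Without Nup210-labelled arrays 2, 4 and 5 there were 563 genes for the Nup210 label, in place of 1809, and 2 of the 10. Between the hairpins there were then 2088 genes and 1 of the 10. Without control arrays 4 and 6 there were 1103 and 2 for the Nup210 label and 1420 and 1 for Mef2c shRNA. The last counts rest on fewer arrays. With the 2 groups alone in the fit, 1 of the 10 was called between the hairpins. Leaving out single arrays gave 2 to 4 of the 10 for the Nup210 label, beside 1406 to 1853 of all genes. For Mef2c shRNA it gave 1 to 2 of the 10, beside 1926 to 2489 of all genes. The shifts of Cav3 minus Cav1 for Mef2c shRNA then ran from 0.20 to 0.34.

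With the replicate number as a block, 2221, 2862 and 3528 genes were called for the Nup210 label, for Mef2c shRNA and between the hairpins. These were 10%, 12.9% and 15.9% of all genes. Of the 10 genes, 6 and 3 were called against control, and 4 differed between the hairpins in place of 2. Cav1 (adjusted p = 0.0325) and Cav3 (0.0284) were then called lower for the Nup210 label and Cavin2 higher for Mef2c shRNA (0.0492), with Cav3 (0.0205) and Cavin2 (0.00129) also called between the hairpins. Over 13017 genes, deviations of same-numbered arrays correlated at -0.22 to 0.46 (median 0.18), over 0.1 in 12 of 18 pairs, beside 12 of 90 pairs of unlike numbers. Since not every same-numbered pair was over 0.1, the numbers were not taken to pair the arrays. The main fit thus keeps the spread that follows the number in its error. Calls that changed with the block depend on this choice. As a hint from the data, 9 of 18 arrays correlated best with their own number in both other groups. For 6 of 6 numbers, Cav3 was lower in the Nup210-labelled array than in the control and the Mef2c shRNA array. Signal over background limits Pacsin3 most among the 10 genes, the dimmest of them.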
